A study of Mus musculus with 4 samples.

Results

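The genes described here are the Wnt ligands, their Frizzled receptors, the secreted antagonists of the Sfrp and Dkk families with Wif1, and 5 feedback and target genes of the pathway (Axin2, Lef1, Nkd1, Rnf43 and Znrf3), in mouse prefrontal cortex (PFC) cultures grown with or without FGF2. They were picked by their symbols among protein-coding genes, and 43 of the 55421 genes in the count files met the rule. They comprise 19 ligands, 10 Frizzled genes, 9 antagonists and 5 feedback and target genes. PFC of wild-type C57BL/6 mice at postnatal day 0 was dissociated and cultured for 10 days, with FGF2 at 5 ng/mL in one group and without FGF2 in the other. Total RNA of whole cultures was sequenced in 2 libraries per group, 4 in all. The labels do not say whether the libraries of a group came from separate cultures. The study's methods speak of technical replicates for most samples. The p-values thus rest only on spread between these libraries, estimated largely across genes, and that spread may be technical.

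Wnt proteins are lipid-modified secreted signals that bind Frizzled receptors. With the co-receptors Lrp5 and Lrp6 they stabilise beta-catenin, which acts with TCF/LEF factors on target genes, and with other receptors, such as Ror2 and Ryk, they act on cell polarity and movement without beta-catenin. In the developing forebrain Wnt signals pattern the cortex, act on progenitor proliferation and differentiation and guide axons. Sfrp proteins and Wif1 bind Wnt ligands, most Dkk proteins block the co-receptors, and Rnf43 and Znrf3 remove Frizzled receptors from the cell surface.

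The 2 libraries with FGF2 held 9166432 and 9907613 counts on genes, and those without held 10460236 and 10799886. Levels are given as CPM (the share of a library that a gene takes, with TMM factors applied to the totals over tested genes), and between genes only as CPM per kb of exon. A count of 3 corresponds to 0.277 to 0.331 CPM in these libraries, a floor that covers counting error only. With edgeR (quasi-likelihood fit, p-values adjusted by Benjamini-Hochberg), 40.5% of the 17144 genes that passed the expression filter differed between the groups at an adjusted p below 0.05, 20.7% higher and 19.9% lower with FGF2. The cultures also differed in markers of cell types. All 10 inhibitory neuron (IN) markers were lower with FGF2 and their summed level was 0.591 of that without FGF2. Of 10 excitatory neuron (EN) markers 5 were lower (summed ratio 0.732), of 10 pan-neuronal markers 8 were lower and 1 was higher (0.734), and of 8 proliferation markers 7 were lower (0.741). In contrast 8 of 9 tested astrocyte markers (1.64) and all 9 tested oligodendrocyte lineage markers (3.31) were higher. With DESeq2 fewer neuronal and proliferation markers passed: 8 IN, 4 EN, 6 pan-neuronal and 4 proliferation markers, all lower. The 8 astrocyte and 9 oligodendrocyte lineage markers passed there too. Endothelial markers summed to 6.76 to 16.0 CPM in any library, with Cldn5 and Tie1 at 0 throughout. Their part in the differences below was not tested, and in bulk RNA fewer cells of a type and less RNA per cell cannot be told apart.

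Among the 23 Wnt pathway members that passed the filter, 13 differed between the groups (56.5%, beside 40.5% of all genes tested). The 7 that rose with FGF2 were Wnt5b, Fzd2, Fzd3, Fzd6, Fzd7, Fzd8 and Dkk3, and the 6 that fell were Wnt4, Wnt5a, Wnt7a, Wnt7b, Fzd4 and Znrf3. By role, 4 of the 5 ligands that changed fell, whereas 5 of the 6 Frizzled genes that changed rose. The median log2 fold change was -0.58 over the 6 tested ligands and 0.25 over the 9 tested Frizzled genes, beside -0.0008 over all genes tested. DESeq2 called 10 of the 23 members, beside 23.4% of all genes, and did not call Wnt5b, Fzd4 or Fzd7. The libraries of the groups did not overlap for 20 of the 23 members, beside 67.1% of all genes tested.

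**Figure D1:**
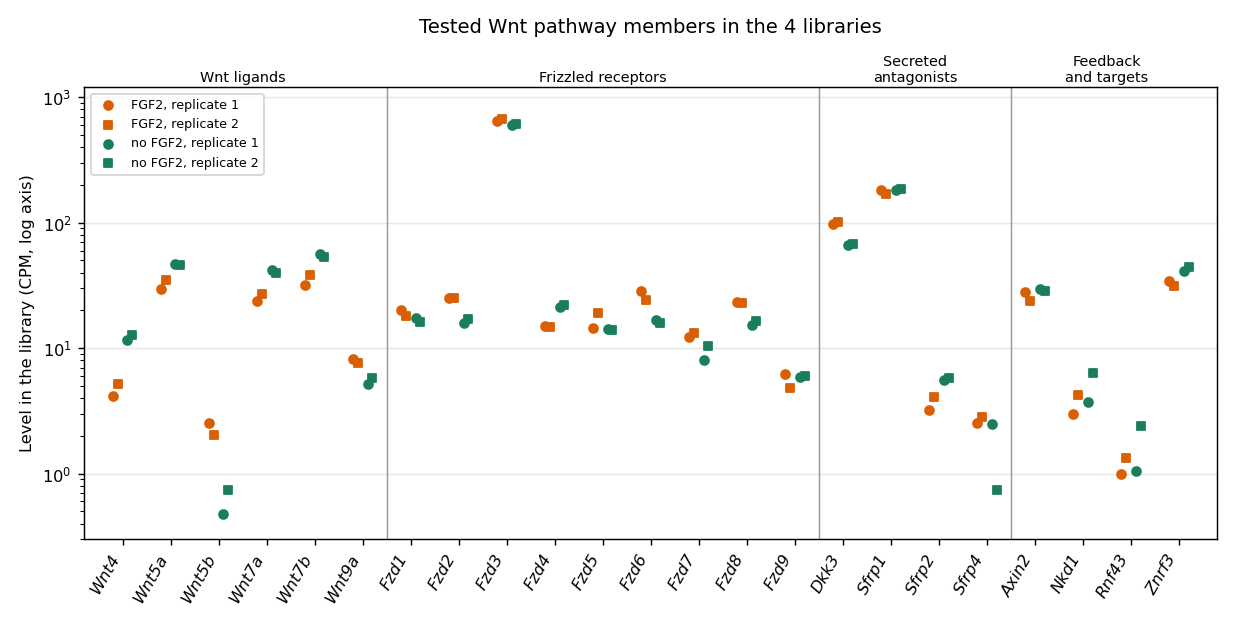
Level of each tested member in each of the 4 libraries, in CPM on a log axis, grouped by role. Orange marks libraries with FGF2 and green those without, circles replicate 1 and squares replicate 2. Wnt4, Wnt5a, Wnt7a and Wnt7b lie lower with FGF2 in both libraries, and Fzd3 lies above 600 CPM in all 4.

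Upstream sequences were used for 30 of the 43 members, as windows from 250 bases before to 50 bases after each gene start (RefSeq, GRCm38.p6, the same build as mm10). No window was held for Wnt5a, Wnt7b, Wnt8a, Wnt10a, Fzd2, Fzd3, Fzd6, Fzd8, Dkk3, Dkk4, Sfrp1, Sfrp4 and Znrf3. The 5 members that differed between the groups and have a window are given here, 3 that fell and 2 that rose. They are 5 of the 13 that differed, too few to compare the starts of members that rose and fell. Only bases before the start and in no annotated exon of the gene are printed, 5′ to 3′ in the direction of the gene, and capitals mark the short core of the TCF/LEF motif, CAAAG or its complement CTTTG.
Wnt5b (chr6:119449387-119449636, minus strand): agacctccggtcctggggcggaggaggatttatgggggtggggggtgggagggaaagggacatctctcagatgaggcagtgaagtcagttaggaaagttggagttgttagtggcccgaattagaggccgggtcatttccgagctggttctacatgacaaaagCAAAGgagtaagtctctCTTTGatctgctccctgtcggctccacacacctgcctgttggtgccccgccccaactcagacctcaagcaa
Fzd7 (chr1:59481897-59482146, plus strand): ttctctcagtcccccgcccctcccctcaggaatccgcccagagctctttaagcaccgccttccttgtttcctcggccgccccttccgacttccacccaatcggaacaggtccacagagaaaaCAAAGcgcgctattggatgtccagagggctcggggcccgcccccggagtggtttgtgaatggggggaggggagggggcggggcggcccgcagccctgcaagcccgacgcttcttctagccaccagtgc
Wnt7a (chr6:91411364-91411603, minus strand): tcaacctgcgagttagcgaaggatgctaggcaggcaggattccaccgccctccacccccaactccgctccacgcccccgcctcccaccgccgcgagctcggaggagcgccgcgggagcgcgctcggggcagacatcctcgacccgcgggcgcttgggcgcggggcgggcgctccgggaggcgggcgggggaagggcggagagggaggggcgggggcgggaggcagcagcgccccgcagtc
Fzd4 (chr7:89404116-89404354, plus strand): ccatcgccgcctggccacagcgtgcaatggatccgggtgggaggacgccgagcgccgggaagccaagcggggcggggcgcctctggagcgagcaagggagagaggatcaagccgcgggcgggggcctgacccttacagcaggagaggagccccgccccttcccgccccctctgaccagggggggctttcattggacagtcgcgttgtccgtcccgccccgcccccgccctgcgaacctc
Wnt4 (chr4:137277385-137277488, plus strand): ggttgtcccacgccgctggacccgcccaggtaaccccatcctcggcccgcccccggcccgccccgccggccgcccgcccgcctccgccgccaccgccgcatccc
The Wnt5b sequence lies before the most downstream of its 3 annotated starts and holds 2 short cores, at 88 and 71 bases before the start. The second is part of the longer core ATCAAAG, read as CTTTGAT on the printed strand. The windows of the other 2 Wnt5b starts held no longer core, and 0 and 1 short cores. Fzd7 holds 1 short core, 128 bases before the start, and the printed bases of Wnt7a, Fzd4 and Wnt4 hold none. Searched on both strands, the longer core was in 2 of the 37 windows of members (Wnt5b and Wnt11), beside 3.73% of 32851 windows of all genes, and in 1 of the 7 windows of these 5 genes. The short core, which every longer core contains, was in 18 of 37 member windows and 3 of 7, beside 53.9% of all windows. GGAA, the core that ETS factors bind, was in 33 of 37 member windows and 6 of 7, beside 96.0% of all. Member windows were rich in G and C, with a median of 66.3% beside 52.7% over all windows. In the printed bases G and C made up 55.6% for Wnt5b and 65.2% for Fzd7, which rose. They made up 72.8% for Fzd4, 77.1% for Wnt7a and 83.65% for Wnt4, which fell. Whether this share bears on the matches was not tested. A match is a description of letters and not a site of binding.

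The ligands with the highest levels per kb were Wnt7a and Wnt7b, close relatives that neural progenitors and neurons secrete and that act on the brain's blood vessels through Reck and Adgra2. Wnt7a had 217 and 264 counts in the libraries with FGF2 and 445 and 430 in those without, or 25.4 ± 2.07 and 41.0 ± 1.86 CPM (mean ± SD, n = 2 libraries in each group, as for all means below). Wnt7b had 287 and 374 counts with FGF2, against 589 and 575 without, or 34.8 ± 4.52 and 54.6 ± 2.08 CPM. In both genes the library without FGF2 that was lowest still lay above both libraries with FGF2. On the log2 scale the difference was -0.69 ± 0.11 (SE) for Wnt7a and -0.65 ± 0.10 for Wnt7b (edgeR adjusted p = 2.4e-09 and 1e-10). The ratio of Wnt7a to Wnt7b per kb was 1.13 ± 0.06 with FGF2 and 1.16 ± 0.01 without. A transcript on the other strand, AU022754, shares 324 bases with Wnt7b and had 24 to 33 counts per library. Among the other tested members, Axin2, Fzd5, Fzd6, Sfrp2 and Wnt5a also share bases with a gene on the other strand, from 152 for Fzd6 to 1233 for Fzd5. Whether the counting used strand is not given in the sources used here.

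Wnt4, a ligand known from kidney and gonad development and also made by cortical cells, had the largest fall of the members tested. It had 38 and 51 counts with FGF2, against 121 and 139 without, or 4.69 ± 0.71 and 12.2 ± 0.94 CPM, a level 2.60-fold higher without FGF2. The groups were far apart relative to the spread within each. The log2 change was -1.37 ± 0.22 (edgeR adjusted p = 2.5e-09), from a fit in which a gene's own spread weighed little. Its longest transcript shares stretches of up to 169 bases at 95% identity or more with transcripts of 201 other genes, so some of its reads could have been assigned elsewhere or dropped.

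Wnt5a and Wnt5b are paralogs that act mainly through pathways without beta-catenin, and they moved in opposite directions. Wnt5a had 268 and 342 counts with FGF2, against 489 and 498 without, or 32.2 ± 3.70 and 46.3 ± 0.38 CPM, a log2 change of -0.52 ± 0.10 (edgeR adjusted p = 1.3e-06). Wnt5b had 23 and 20 counts with FGF2, against 5 and 8 without, or 2.28 ± 0.35 and 0.607 ± 0.19 CPM, a log2 change of 1.88 ± 0.55 (edgeR adjusted p = 0.0024). Wnt5b was thus low in every library, and its call rested on few counts: it was lost with DESeq2 (adjusted p = 0.076) and stood at the threshold, 0.050, in edgeR without replicate 1 of the cultures without FGF2. Per kb, Wnt5b stood at 0.213 ± 0.06 of Wnt5a with FGF2 and at 0.0388 ± 0.01 without. Even with FGF2 most of the RNA of the pair was Wnt5a.

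Wnt9a, the remaining tested ligand, had 74 and 75 counts with FGF2, against 54 and 63 without. Its log2 fold change of 0.52 ± 0.23 did not pass the threshold (edgeR adjusted p = 0.060), although the groups did not overlap. Without FGF2 the order of the ligands per kb was Wnt7a, Wnt7b, Wnt5a, Wnt4, Wnt9a and Wnt5b, from 12.9 to 0.229 CPM per kb, and no neighbours in it overlapped between libraries. With FGF2 the order was Wnt7a, Wnt7b, Wnt5a, Wnt9a, Wnt4 and Wnt5b, from 8.00 to 0.861 CPM per kb, and the libraries of Wnt7a and Wnt7b overlapped. Wnt4 and Wnt9a had therefore changed places. Summed over all 19 ligands, the level was 24.4 ± 1.80 CPM per kb with FGF2 and 36.1 ± 0.37 without, a ratio of 0.677. Wnt7a and Wnt7b together made up 61.8% ± 1.90 of that sum with FGF2 and 66.7% ± 2.12 without.

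The other 13 ligands did not pass the filter. Wnt3a and Wnt16 were at 0 in all libraries, which allows up to 3 counts in each. Wnt1 had 1, 0, 0 and 1 counts in the libraries FGF2 replicates 1 and 2 and no FGF2 replicates 1 and 2, and the following counts are in the same order. Wnt2 had 2, 1, 5 and 14, Wnt2b 1, 4, 12 and 9, and Wnt3 8, 6, 11 and 10. These were the highest of the untested ligands, and all of their libraries without FGF2 lay above those with FGF2. Wnt6 had 5, 0, 0 and 0 counts, Wnt8a 0, 1, 0 and 0, and Wnt8b 3, 4, 1 and 1. Wnt9b had 1, 0, 3 and 1, Wnt10a 2, 3, 0 and 0, Wnt10b 0, 3, 2 and 9, and Wnt11 2, 0, 7 and 4. Wnt1, Wnt3a and Wnt8b were thus at or near the floor in every library. In an edgeR fit without the filter none of the untested members passed the threshold (the smallest adjusted p was 0.068, for Wnt2).

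**Figure D2:**
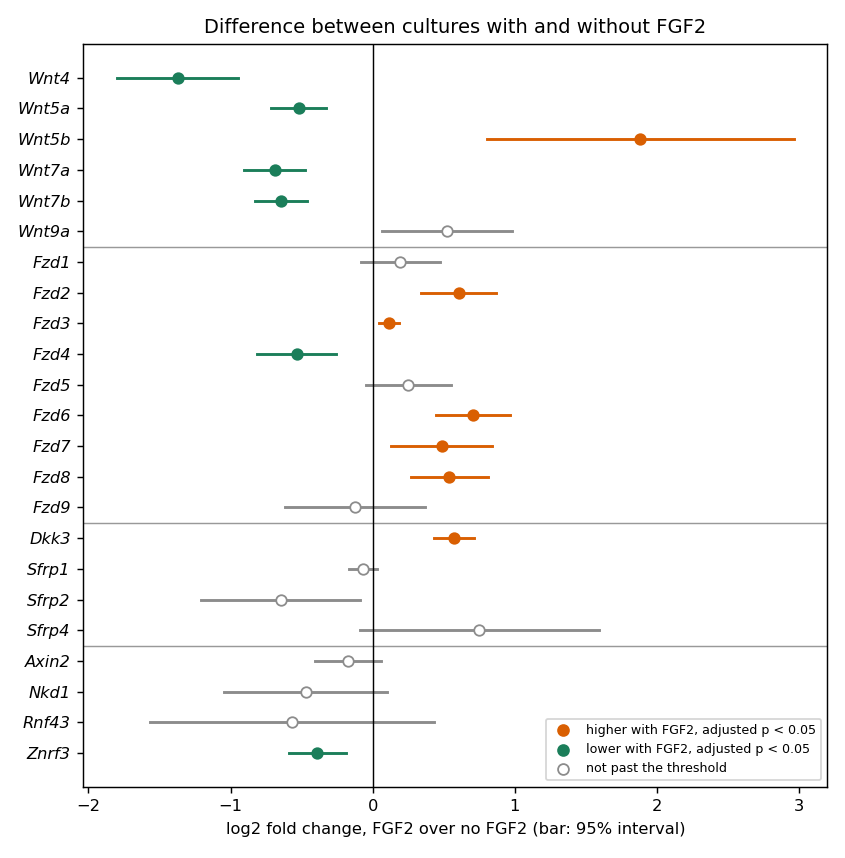
Log2 fold change of each tested member, FGF2 over no FGF2, with a 95% interval derived from the edgeR test statistic. Members are grouped by role from ligands at the top to feedback genes at the bottom. Filled points passed an adjusted p of 0.05. Wnt5b has the widest interval among the filled points, 0.80 to 2.96, and Fzd3 the narrowest, 0.05 to 0.19.

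The Frizzled receptors, seven-pass membrane proteins that bind the ligands, were dominated by Fzd3, which guides growing axons and neurites. Fzd3 had 5866 and 6548 counts with FGF2, against 6327 and 6586 without, or 656 ± 13.6 and 605 ± 4.34 CPM. Its rise was the smallest among the members that changed, 0.12 ± 0.04 on the log2 scale (edgeR adjusted p = 0.0041), and it did not pass without replicate 1 or without replicate 2 of the cultures without FGF2 (adjusted p = 0.11 and 0.060). Fzd3 provided 62.5% ± 1.12 of the summed Frizzled level per kb with FGF2 and 65.9% ± 0.22 without.

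The larger rises were in Fzd6, Fzd2 and Fzd8. Fzd6, a receptor of planar cell polarity related to Fzd3, had 261 and 240 counts with FGF2, against 175 and 172 without, a log2 change of 0.71 ± 0.13 (edgeR adjusted p = 7.1e-07). Fzd2 had 227 and 249 counts with FGF2, against 167 and 186 without, a log2 change of 0.60 ± 0.13 (adjusted p = 3.2e-05). Fzd8 had 213 and 225 counts with FGF2, against 161 and 179 without, a log2 change of 0.54 ± 0.14 (adjusted p = 0.00038). In these 3 receptors the groups did not overlap, and their calls held in every fit that left out 1 library. Fzd7, which shares with Fzd2 a close relation to Fzd1, had 112 and 131 counts with FGF2, against 84 and 112 without, with a log2 change of 0.48 ± 0.18 (edgeR adjusted p = 0.022). It is the least certain of the receptor calls: it was lost with DESeq2 (adjusted p = 0.26), without FGF2 replicate 2 (0.12) and without no FGF2 replicate 1 (0.32, log2 fold change 0.31).

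Fzd4 fell, whereas the 5 other Frizzled genes that passed the threshold rose. It is the receptor of the retinal ligand norrin as well as of Wnt proteins and is known for its part in brain and retinal vessels. Its counts were 137 and 145 with FGF2 and 224 and 237 without, or 14.9 ± 0.25 and 21.6 ± 0.40 CPM, a log2 change of -0.53 ± 0.14 (edgeR adjusted p = 0.00072, DESeq2 adjusted p = 0.056). The 2 libraries of each group were close together and the groups well apart. Of the endothelial markers measured beside it, 4 of 10 passed the filter, 2 higher and 1 lower with FGF2.

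Fzd1, Fzd5 and Fzd9 did not pass the threshold. Fzd1 had 183 and 179 counts with FGF2, against 183 and 174 without, Fzd5 131 and 187 against 150 and 151, and Fzd9 56 and 47 against 62 and 65. The 95% intervals of the log2 fold change were -0.08 to 0.47 for Fzd1, -0.05 to 0.55 for Fzd5 and -0.62 to 0.37 for Fzd9. The value of Fzd5 rested on 1 library: it was 0.03 without FGF2 replicate 2 and 0.43 without FGF2 replicate 1, where it passed (edgeR adjusted p = 0.038). Fzd10 had 0 counts in both libraries with FGF2 and 4 and 1 without, and was not tested. Per kb Fzd3 stood highest in both groups, 51.2 ± 1.07 CPM per kb with FGF2 and 47.3 ± 0.34 without, and Fzd2 next, 6.87 ± 0.06 and 4.52 ± 0.25. Below them the order was Fzd6, Fzd1, Fzd8, Fzd7, Fzd5, Fzd9 and Fzd4 with FGF2, the last at 2.22 ± 0.04, with overlapping libraries from Fzd7 to Fzd4. Without FGF2 it was Fzd1, Fzd6, Fzd4, Fzd8, Fzd9, Fzd5 and Fzd7, the last at 2.02 ± 0.37, with overlap between Fzd8 and Fzd9 and between Fzd5 and Fzd7.

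The balance of receptors and ligands moved with the groups. The 10 Frizzled genes summed to 81.9 ± 0.23 CPM per kb with FGF2 and 71.8 ± 0.75 without, and without Fzd3 to 30.7 ± 0.83 and 24.5 ± 0.41. The ratio of the Frizzled sum to the ligand sum was 3.53 and 3.20 in the libraries with FGF2 and 1.96 and 2.02 in those without. These sums are descriptions of RNA levels and were not tested.

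**Figure D3:**
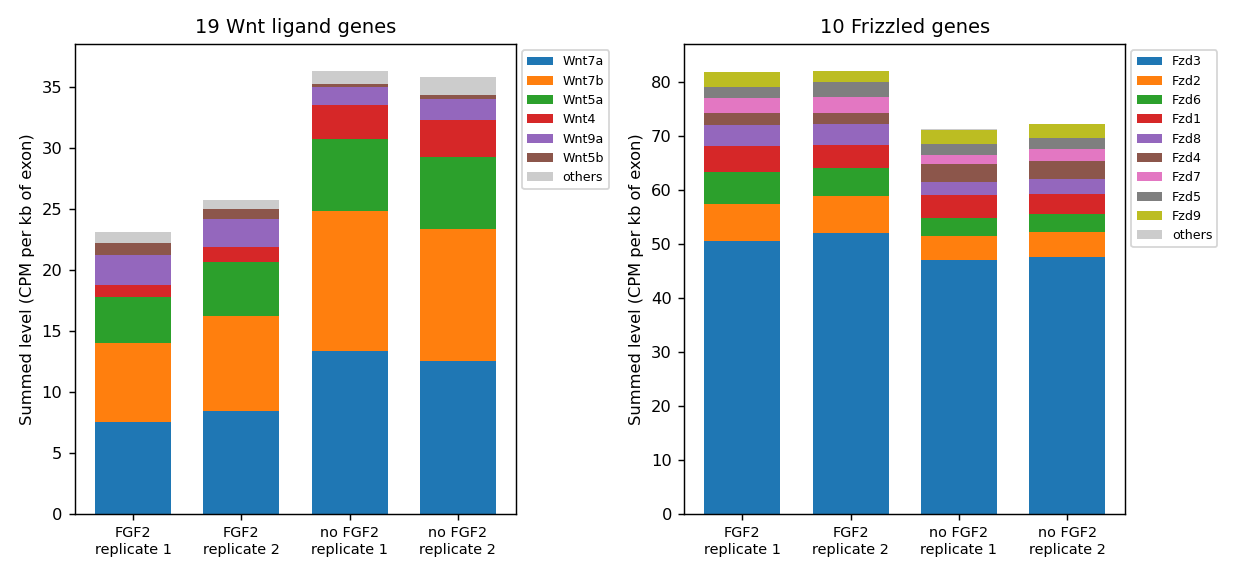
Stacked bars of the summed level, in CPM per kb of exon, of the 19 ligand genes and of the 10 Frizzled genes in each library, with 1 colour per gene and grey for the remaining genes. The ligand bars reach 23.2 and 25.7 with FGF2 and 36.4 and 35.8 without, and Fzd3 fills most of each Frizzled bar.

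Sfrp1 and Dkk3 accounted for almost all of the antagonist level, 96.6% ± 0.60 of the sum per kb with FGF2 and 94.7% ± 0.07 without. Dkk3, a divergent Dickkopf family member whose effect on Wnt signalling depends on the cell, had 888 and 991 counts with FGF2, against 694 and 731 without, or 99.3 ± 2.05 and 66.8 ± 1.04 CPM. Its rise of 0.57 ± 0.07 on the log2 scale had the smallest adjusted p of the members (edgeR, 3.7e-14). Sfrp1, which binds Wnt ligands and is made by cortical progenitors, had 1648 and 1665 counts with FGF2, against 1930 and 1993 without. In CPM these were 182 and 169 CPM against 184 and 184, a log2 change of -0.07 with a 95% interval from -0.17 to 0.03 (edgeR adjusted p = 0.30). Of the pair, Dkk3 rose and Sfrp1, at the higher level, did not pass.

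Sfrp2 had 29 and 40 counts with FGF2, against 59 and 63 without, a log2 change of -0.65 ± 0.28 just short of the threshold (edgeR adjusted p = 0.055), and it passed under upper quartile and total count scaling and without FGF2 replicate 2 (-0.84, adjusted p = 0.046). Over the other alternatives run its adjusted p reached 0.32, with DESeq2. Sfrp4 had 23 and 28 counts with FGF2, against 26 and 8 without. Its library values without FGF2 were far apart, and its log2 fold change ran from 0.12 to 1.85 as single libraries were left out, passing only without no FGF2 replicate 1. The other 5 antagonists were not tested: Dkk4 was at 0 in all libraries, Dkk1, the classical blocker of Lrp6, had 0, 0, 1 and 5 counts in the library order used above, and Dkk2 had 0, 4, 0 and 2. Sfrp5 had 1, 0, 0 and 3 counts and Wif1 1, 2, 4 and 6.

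Of the feedback and target genes, only Znrf3 passed the threshold among the 4 tested. Znrf3, a membrane ubiquitin ligase that beta-catenin signalling induces and that lowers Frizzled at the surface, had 312 and 306 counts with FGF2, against 436 and 479 without, or 32.7 ± 2.31 and 42.9 ± 1.94 CPM. It fell by 0.39 ± 0.10 on the log2 scale (edgeR adjusted p = 0.00054, DESeq2 adjusted p = 0.048). Axin2, a scaffold of the beta-catenin destruction complex and the most widely used readout of the pathway, had 254 and 235 counts with FGF2, against 312 and 311 without, or 25.9 ± 2.90 and 29.2 ± 0.69 CPM. The groups did not overlap, but the log2 fold change of -0.17 had a 95% interval from -0.40 to 0.06 (edgeR adjusted p = 0.24). It was -0.06 without FGF2 replicate 2 and -0.29 without FGF2 replicate 1 and passed in neither fit.

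Nkd1, an inducible inhibitor of Dishevelled, had 27 and 42 counts with FGF2, against 39 and 69 without, with overlapping groups and a log2 change of -0.47 ± 0.29 (edgeR adjusted p = 0.20). Rnf43, the paralog of Znrf3, had 9 and 13 counts with FGF2, against 11 and 26 without, and its direction turned when no FGF2 replicate 2 was left out. In both genes the libraries without FGF2 differed from each other by more than the group means did. The log2 fold change of Nkd1 ran from -0.81 without no FGF2 replicate 1 to -0.03 without no FGF2 replicate 2. Lef1, a TCF/LEF factor and itself a target, had 4 and 2 counts with FGF2, against 1 and 1 without and was not tested. Per kb Znrf3 and Axin2 were close in each group, 4.15 ± 0.29 and 4.71 ± 0.53 with FGF2 and 5.43 ± 0.25 and 5.30 ± 0.12 without, and Rnf43 was lowest of the tested genes at 0.176 ± 0.04 and 0.263 ± 0.15.

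The wider pathway was followed in 7 lists of 79 further genes, of which 70 were tested. With FGF2 16 were higher and 29 were lower, 64.3% of those tested beside 40.5% of all genes, and the median log2 fold change was -0.12. With edgeR every list held genes of both directions. DESeq2 called 27 of the genes, 11 higher and 16 lower.

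Of the 5 genes of Wnt secretion and ligand modification, Wls, the carrier that brings Wnt proteins to the surface, fell by 0.49 ± 0.09 on the log2 scale (edgeR adjusted p = 1e-06), as the main ligands did. Tmed5, a cargo adaptor of the secretory pathway, rose by 0.78 ± 0.18 (adjusted p = 0.0001), and Porcn, the enzyme that adds the lipid, had a log2 change of -0.16 ± 0.14 (adjusted p = 0.39). Among 15 co-receptors, alternative receptors and planar polarity genes 4 were higher and 6 lower. The co-receptors Lrp5 and Lrp6 had log2 fold changes of 0.31 ± 0.10 and 0.16 ± 0.05 (edgeR adjusted p = 0.0066 and 0.0022). Ror1 and Ror2, kinases that bind Wnt5a, moved apart: Ror1 had 156 and 164 counts with FGF2, against 104 and 110 without, and Ror2 28 and 33 against 69 and 76. Their log2 fold changes were 0.75 ± 0.17 and -1.07 ± 0.28 (edgeR adjusted p = 2.8e-05 and 0.00051). The planar polarity genes Celsr2, Celsr3 and Prickle2, which neurons use in axon and dendrite growth, fell by 0.46 ± 0.04, 0.71 ± 0.05 and 0.59 ± 0.05, while Daam2, a Dishevelled partner of glia, rose by 0.50 ± 0.06 (edgeR adjusted p between 8.2e-39 and 1.1e-15).

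R-spondins bind Lgr receptors and spare Frizzled from Rnf43 and Znrf3. Lgr6 had 31 and 24 counts with FGF2, against 86 and 93 without, the largest fall of the 70 genes at -1.52 ± 0.27 (edgeR adjusted p = 9.9e-08). Lgr4 rose by 0.29 ± 0.08 (adjusted p = 0.0011) and Rspo3, with 34 and 30 counts against 13 and 19, by 1.17 ± 0.41 (adjusted p = 0.014). Lgr5 had 48 and 107 counts with FGF2, against 101 and 162 without, and its groups overlapped although its log2 fold change of -0.59 ± 0.19 passed the test (edgeR adjusted p = 0.0062).

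Of 16 genes of beta-catenin transduction in the cytoplasm 1 was higher and 6 were lower, 43.8% beside 40.5% of all genes tested. Ctnnb1, beta-catenin itself, rose by 0.24 ± 0.04 on the log2 scale, while the destruction complex genes Apc, Apc2 and Gsk3b fell by 0.31 ± 0.03, 0.72 ± 0.05 and 0.19 ± 0.04 (edgeR adjusted p between 2.4e-53 and 4.2e-06). Axin1, of the same complex, did not fall: its log2 change was 0.18 ± 0.09 and did not pass (edgeR adjusted p = 0.097). None of the 3 Dishevelled genes passed. Among 12 TCF factors and co-factors the largest change was in Tcf7l2, a TCF factor prominent in the oligodendrocyte lineage and thalamus, with 1437 and 1515 counts with FGF2, against 602 and 629 without. Its log2 fold change was 1.44 ± 0.07 (edgeR adjusted p = 3.3e-99), and that of Tcf7l1, a mostly repressive TCF factor, was 0.74 ± 0.11 (adjusted p = 2.1e-10). The co-repressors of the Tle family divided, Tle4 and Tle3 being higher and Tle1 and Tle2 lower, with log2 fold changes from -0.93 for Tle2 to 0.49 for Tle4. The co-activator Bcl9l fell by 0.46 ± 0.06 (adjusted p = 1.2e-12).

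Among other modulators outside the cell and in the membrane, Reck rose by 0.52 ± 0.13 and its partner Adgra2 fell by 0.91 ± 0.33 on the log2 scale (edgeR adjusted p = 0.00029 and 0.016). Gpc4, a glypican, rose by 0.24 ± 0.08, and Igfbp4 and Apcdd1, both inhibitors of the pathway, fell by 0.51 ± 0.09 and 0.36 ± 0.14 (adjusted p = 0.0070, 2.2e-08 and 0.031). Of 11 tested genes that are widely used as beta-catenin targets, 2 were higher and 8 lower with edgeR, and 2 were higher and 1, Tnfrsf19, lower with DESeq2. The higher ones were Cd44, an adhesion receptor of glia and their precursors, with 2974 and 3310 counts with FGF2, against 689 and 740 without, and Myc, a growth regulator, with 600 and 551 against 391 and 412. Their log2 fold changes were 2.31 ± 0.05 and 0.70 ± 0.09. Tnfrsf19, Sp8 and Ccnd1 fell by 0.75 ± 0.09, 0.39 ± 0.11 and 0.28 ± 0.08 (edgeR adjusted p = 7.3e-16, 0.0020 and 0.0024). Many genes of this list, Myc and Ccnd1 among them, also respond to other signals. Of the pathway genes named here, Lrp5, Lrp6, Lgr4, Lgr5, Rspo3, Gpc4, Adgra2, Apcdd1 and Ccnd1 each failed the threshold in at least 1 fit that left out a library. These 9 genes, and with them Sp8 and Tle1, also failed it with DESeq2 (adjusted p = 0.054 for Lrp6 to 0.28 for Apcdd1). The smallest change of Lgr5 among these fits was -0.18, without FGF2 replicate 1, beside -0.24 without no FGF2 replicate 2, and that of Rspo3 was 0.95, without no FGF2 replicate 1.

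**Figure D4:**
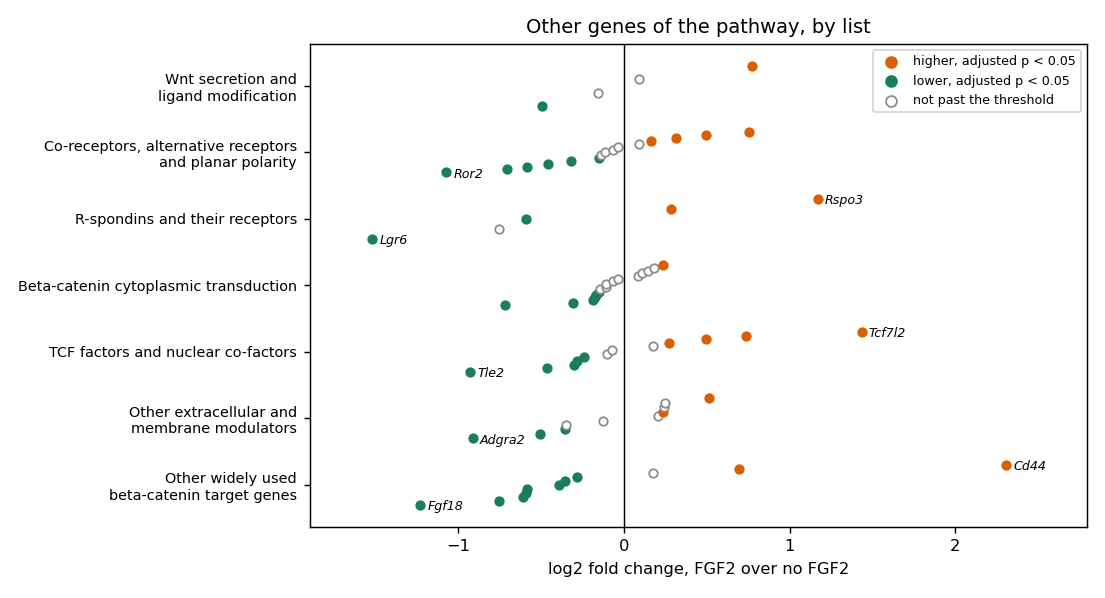
Log2 fold change, FGF2 over no FGF2, of the tested genes of each of the 7 pathway lists, 1 point per gene, filled where the adjusted p of edgeR was below 0.05. Each list has points on both sides of 0. Cd44 at 2.31 and Tcf7l2 at 1.44 lie farthest to the right and Lgr6 at -1.52 farthest to the left.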

How the data were processed

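The deposited values were raw counts per gene in each of 4 libraries, without normalization. Per the submitters' processing notes and the methods, the authors aligned reads to mm10 with HISAT2 2.1.0, kept reads of high mapping quality and counted them with HTSeq 0.11.2. The annotation release and the strand setting are not given in the sources used here. Reads in no feature, 43.2% to 45.9% of each library's tally, were left out. Names and coordinates came from GENCODE M21 (55154 identifiers matched). Counts were tested with edgeR 4.0.16 in R 4.3.3 (TMM, expression filter by group, robust quasi-likelihood fit, Benjamini-Hochberg over 17144 genes). The fit shared its estimate of spread almost wholly across genes, so a gene's own spread weighed little. Standard errors and intervals were calculated back from the log2 fold change and the edgeR test statistic, and are not direct output of the fit. Alternatives were 3 other scalings, 2 other filters, DESeq2 1.42.0, limma-voom (limma 3.58.1), a replicate block, another prior count, an adjusted p of 0.01 and each library left out. Every member is reported, with, of each pathway list, up to 3 genes per direction of the smallest adjusted p and a few others chosen after their values were seen. Members and lists were chosen with earlier results of these data known. Replicates differed by more than sampling noise (chi-square per degree of freedom 2.28 and 1.76) and were kept apart. Similar transcripts were sought with BLAST 2.17.0 (100 bases, 95% identity). Promoter windows on chromosome 18 were not used.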

Additional observations from a re-analysis of the deposited data

How the results depend on the processing

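Of the 13 members called, all kept their direction in every alternative run in which they had a value. Wnt5b had none where 10 counts were required in each library. Some of the 13, as given above, did not stay past the threshold in every alternative. With DESeq2 27 pathway genes were called, 16 of them lower, in place of 45 and 29. At an adjusted p of 0.01 12 members passed, Fzd7 being lost. As single libraries were left out, the log2 fold change ran from -1.04 to 0.15 for Rnf43 and from -0.32 to 0.052 for Fzd9, neither of which passed in any fit, and 11 to 14 members were called. The 3 other scalings moved the median of all genes by at most 0.03 on the log2 scale. With the replicate number as a block, 13 members and 44 pathway genes were called. The deviations of same-numbered libraries correlated at 0.01, so the numbers were not taken to pair the libraries. Requiring 10 counts in each library left 3 of the 23 members without a value. The 20 members left untested had at most 14 counts in a library, which limits what could be seen for them.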

Other observations

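Several Wnt genes lie beside each other in the genome, and in 3 such pairs 1 gene had more counts than its neighbour in all or most libraries. Wnt9a, with 54 to 75 counts per library, lies 16.2 kb from Wnt3a, which was at 0 in all libraries. Wnt3, with 6 to 11 counts, lies 24.3 kb from Wnt9b, with 0 to 3. Wnt10b, with 0 to 9 counts, lies 11.7 kb from Wnt1, with 0 or 1. In FGF2 replicate 1 Wnt1 had 1 count and Wnt10b 0. Both genes were at or below the floor of 3 counts except for Wnt10b in no FGF2 replicate 2. Wnt6 and Wnt10a lie 6.19 kb apart on chromosome 1 in the same direction, and the counts of both came only from libraries with FGF2, 5 and 0 for Wnt6 and 2 and 3 for Wnt10a against 0 in both libraries without FGF2 for each. These counts are at or near the floor of 3, neither gene was tested, and without the filter neither passed the threshold (edgeR adjusted p = 0.24 and 0.25).

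Some cell types that secrete or respond to Wnt proteins were represented by few counts in most of their markers. Of the microglia markers 6 of 10 were tested and 3 were higher with FGF2, with a summed level of 36.9 and 40.6 CPM in those libraries and 23.9 and 24.9 CPM in those without. Of the meningeal fibroblast and mural markers 8 of 10 were tested, with sums of 51.1 to 63.8 CPM. Pdgfrb and Rgs5 were higher with FGF2, and Col1a1 and Col1a2 were lower. Most of the sum was Pdgfrb, at 47.9 CPM with FGF2 and 28.8 CPM without, so the sum hides the fall of the 2 collagen genes. Of the choroid plexus markers 3 of 7 were tested and 1 was lower, with sums of 5.84 to 8.66 CPM.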
